A study of Mus musculus with 12 samples.

Results

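The dual specificity MAP kinase phosphatases examined here were 10 genes, Dusp1, Dusp2, Dusp3, Dusp4, Dusp5, Dusp6, Dusp7, Dusp10, Dusp14 and Dusp16. They were taken by symbol from a table of 43280 genes, in which each had 1 row. RNA was measured by poly(A) RNA-seq in bone marrow-derived macrophages (BMDM), macrophages grown from mouse marrow with the growth factor M-CSF, of wild type (wt) and Treml4-/- mice, both on the C57BL6 background. TREML4 is a receptor of myeloid cells, and the comparison asked how the inflammatory program of macrophages differs without it. Unstimulated cells (M0) were labelled as vehicle controls, and M1 cells had received lipopolysaccharide (LPS), a component of the bacterial outer membrane, at 100 ng/ml for 8 h (M1-8 h) or 12 h (M1-12 h). Each of the 6 conditions had 2 biological replicates, which gave 12 libraries. The labels give no Cre driver or cell type for the deletion and no age for the mice. They also do not say whether replicates came from separate animals, so p-values measure the spread between these libraries. How long the M0 cells were held with vehicle is not given either. The same M0 libraries served for both LPS times, so LPS and time in culture cannot be fully told apart.

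MAP kinases of the ERK, JNK and p38 classes are switched on when a threonine and a tyrosine of their activation loop are phosphorylated, and dual specificity phosphatases switch them off by removing both phosphates. Several of these phosphatase genes are themselves immediate targets of MAP kinase signalling, which makes them a negative feedback on the response of macrophages to bacterial products. The members examined here are usually divided into inducible nuclear enzymes (Dusp1, Dusp2, Dusp4 and Dusp5), cytoplasmic enzymes selective for ERK (Dusp6 and Dusp7), enzymes selective for JNK and p38 (Dusp10 and Dusp16) and small atypical enzymes that lack the MAP kinase binding domain (Dusp3 and Dusp14). These classes are not complete, and further dual specificity phosphatases are given below as a separate list.

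The promoters of 9 of the 10 members were found in the RefSeq promoter table for GRCm38.p6, and Dusp4 had no entry. Each window holds 250 bases before and 50 bases after the annotated start, and positions are counted from the start base as 0, with negative numbers upstream. Both strands of each window were searched for 6 motifs. The cAMP response element TGACGTCA was found in 1 member, Dusp1, and in 1.79% of all 32851 promoters. Its core TGACG, which the full element also contains, was found in 4 of the 9 members and in 20.8% of all promoters. The serum response factor element (CArG box) was found in 1 member, Dusp5, and in 1.63% of all promoters. No member window held the AP-1 motif TGANTCA (7.81% of all promoters), the NF-kB motif (8.46%) or the TATA motif TATAAA (13.6%). These matches are letters in a window and were not tested as binding sites. The 4 promoters that held a motif are shown, with matches in capitals. All 4 genes had higher mRNA after LPS, but so did Dusp10, whose window held none of the 6 motifs, and no test linked motif and level.

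The Dusp1 window, chr17:26508423-26508722 (reverse strand), held the full element at -143 to -136 and a further core at -191 to -187. The Dusp5 window, chr19:53528895-53529194 (forward strand), held adjacent CArG boxes at -82 to -73 and -72 to -63, and the core on the opposite strand at -55 to -51. The core lay at 5 to 9, after the start and on the opposite strand, in Dusp2, chr2:127335909-127336208 (forward strand), and at -70 to -66 in Dusp16, chr6:134792579-134792878 (reverse strand).
Dusp1: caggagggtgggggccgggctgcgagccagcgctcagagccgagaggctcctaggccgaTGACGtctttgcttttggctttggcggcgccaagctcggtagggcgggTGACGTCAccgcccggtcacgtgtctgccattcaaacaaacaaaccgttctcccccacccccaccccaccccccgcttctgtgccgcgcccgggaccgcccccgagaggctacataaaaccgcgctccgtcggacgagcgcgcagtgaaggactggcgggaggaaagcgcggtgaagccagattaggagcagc
Dusp5: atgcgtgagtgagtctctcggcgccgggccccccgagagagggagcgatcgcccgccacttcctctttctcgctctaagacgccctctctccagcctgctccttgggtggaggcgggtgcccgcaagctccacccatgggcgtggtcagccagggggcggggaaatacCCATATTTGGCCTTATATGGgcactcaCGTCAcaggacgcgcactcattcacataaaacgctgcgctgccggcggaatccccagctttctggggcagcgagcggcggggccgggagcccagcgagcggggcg
Dusp2: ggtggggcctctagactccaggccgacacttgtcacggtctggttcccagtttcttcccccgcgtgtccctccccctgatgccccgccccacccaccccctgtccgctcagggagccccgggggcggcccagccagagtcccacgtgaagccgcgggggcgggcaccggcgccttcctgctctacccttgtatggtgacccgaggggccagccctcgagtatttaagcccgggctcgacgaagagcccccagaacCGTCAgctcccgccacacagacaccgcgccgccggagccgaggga
Dusp16: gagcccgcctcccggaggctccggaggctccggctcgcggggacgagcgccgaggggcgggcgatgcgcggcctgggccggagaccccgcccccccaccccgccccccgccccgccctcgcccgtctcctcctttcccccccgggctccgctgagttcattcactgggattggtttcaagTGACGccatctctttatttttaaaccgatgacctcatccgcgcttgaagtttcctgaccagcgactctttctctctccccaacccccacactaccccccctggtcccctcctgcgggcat

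Libraries held 48008751 to 58500792 reads counted on genes, and 1 read was worth 0.0171 to 0.0208 CPM, the read count scaled to the library total. Treml4 itself had 198 to 663 reads in the 6 wt libraries and 0 in the 6 Treml4-/- libraries. All 8 macrophage markers had at least 1 CPM in every condition. Their summed level was 20712 to 27907 CPM at M0, 10295 to 13416 CPM at M1-8 h and 9996 to 11185 CPM at M1-12 h, and its part in the LPS changes below was not tested. Single macrophage markers went both ways from M0 to M1-8 h. Lyz2, Csf1r, Cd68 and Emr1 were lower without overlap, Mertk, Fcgr1 and Itgam were higher without overlap, and Cd14 overlapped. Lyz2 was at 10416 to 15208 CPM at M0 and 4019 to 6514 CPM at M1-8 h. Fcgr1 was at 59.6 to 65.1 CPM at M0 and 1105 to 1332 CPM at M1-8 h. The LPS-inducible Nos2 was at 3.39 to 6.90 CPM at M0 and 16756 to 19425 CPM at M1-8 h. Markers of B cells, T and NK cells, mast cells and erythroid cells summed to less than 1 CPM in each library, and stromal markers to at most 2.39 CPM. Dendritic cell markers summed to 0.688 to 0.896 CPM at M0 and 2.53 to 7.71 CPM after LPS, of which Xcr1 alone made up 2.36 to 7.19 CPM after LPS and 0 in every M0 library. In bulk RNA, fewer cells of a type and less RNA per cell cannot be told apart.

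CPM were compared as log2(CPM + 1) with limma over all 12 libraries, for the 12086 genes that reached 1 CPM in 2 or more libraries. A call required an adjusted p (Benjamini-Hochberg) below 0.05 together with a difference of 1.4-fold or more. This scale understates changes of weakly expressed genes. Of the 10 members, 9 passed the filter and Dusp14 did not. The LPS comparisons average both genotypes, and those at 8 h and 12 h share the same M0 libraries. LPS moved the median of all genes by -0.72 at 8 h and -0.76 at 12 h on this scale. The changes of the 9 tested members against M0 are therefore also given after median of ratios scaling. That scaling raised the medians of all genes by 0.69 and 0.72. Dusp14 is given in reads and CPM only. Where libraries are said to overlap or not between times, the share of all genes without overlap was not computed.

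Members split into those with higher and those with lower mRNA after LPS. At M1-8 h, 5 of the 9 tested members were called higher than at M0, against 17.1% of all genes tested, and 3 were called lower, against 59.8%. With median of ratios scaling the same comparison called 5 members higher, against 31.1% of all genes, and 2 lower, against 31.4%. At M1-12 h, 6 members were called higher, against 16.3% of all genes, and 3 lower, against 60.3%. Median of ratios scaling again called 6 higher and 3 lower at that time, where 32.7% and 32.6% of all genes were called. Between M1-8 h and M1-12 h, 3 members were called higher, against 13.5% of all genes, and 4 lower, against 18.7%. The median log2 fold change of the 9 members was 1.79 at 8 h, 0.88 at 12 h and 0.26 between the LPS times, and that of all genes was -0.72, -0.76 and -0.06.

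**Figure D1:**
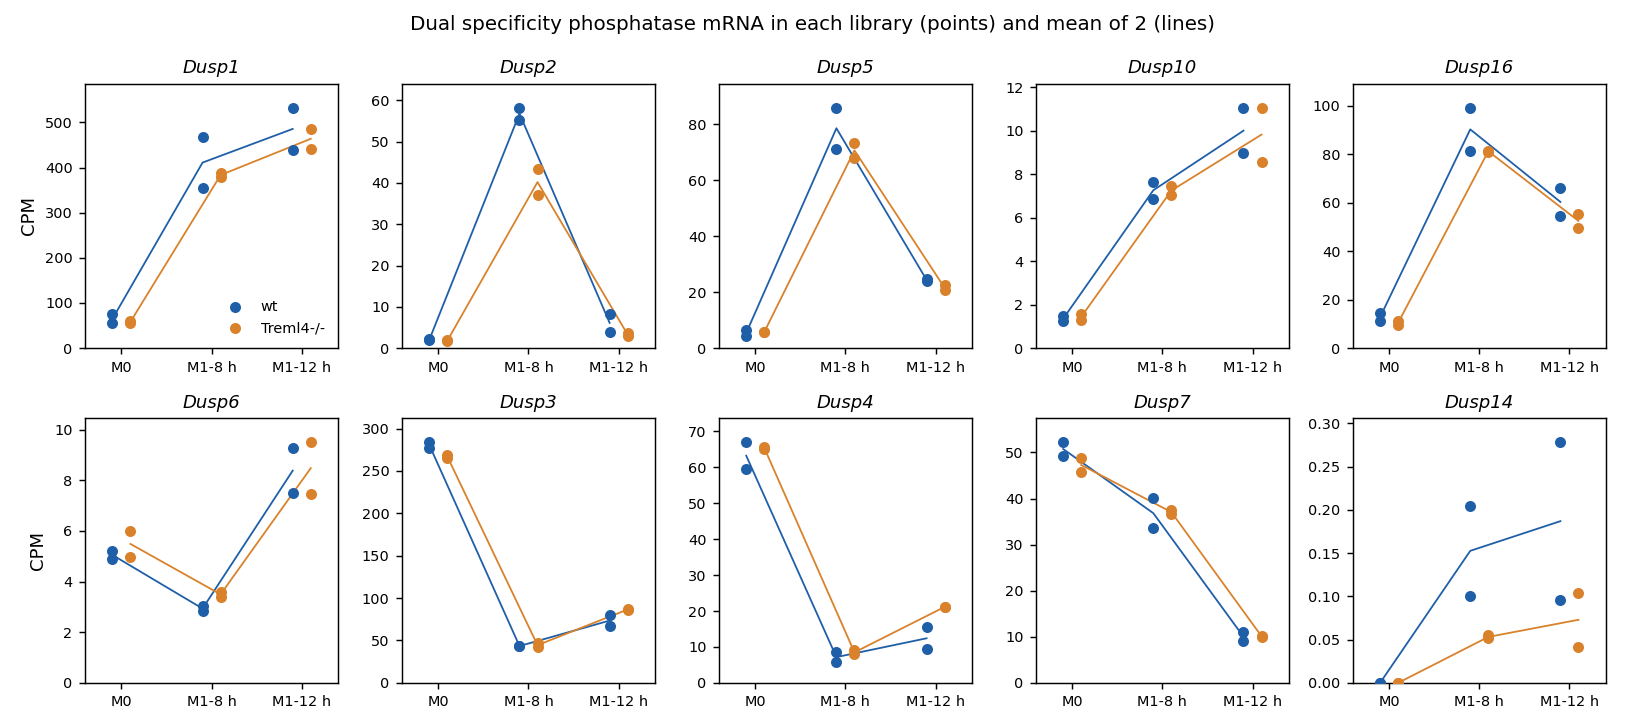
Level of each of the 10 genes in CPM (vertical axis, from 0, own scale in each panel) in the 12 libraries at M0, M1-8 h and M1-12 h. Points are libraries and lines join the means of 2 replicates, with wt in blue and Treml4-/- in orange. In the panels of Dusp1, Dusp2, Dusp5, Dusp10 and Dusp16, and of Dusp14 near the limit of detection, every M1-8 h point lies above every M0 point. In those of Dusp3, Dusp4, Dusp6 and Dusp7 every M1-8 h point lies below. With median of ratios scaling the 8 h log2 fold change was 0.07 for Dusp6 and 0.38 for Dusp7, and neither was called.

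Among the inducible nuclear enzymes, Dusp1 (chr17:26505590-26562128, reverse strand, positions from GENCODE M21 on GRCm38 here and below), which acts on p38 and JNK in LPS-treated macrophages, was raised at both times. At M0 Dusp1 stood at 54.8 and 74.5 CPM in the wt replicates and 55.5 and 60.9 CPM in the Treml4-/- replicates. LPS for 8 h gave 468 and 355 CPM in the wt replicates and 388 and 379 CPM in the Treml4-/- replicates, and 12 h gave 533 and 439 CPM in the wt replicates and 442 and 486 CPM in the Treml4-/- replicates. Every LPS library was above every M0 library, while the M1-8 h and M1-12 h libraries overlapped. Dusp1 rose by a log2 fold change of 2.68 (SE 0.11) at 8 h (limma adjusted p = 8.0e-10) and 2.94 (SE 0.11) at 12 h (limma adjusted p = 3.7e-10). Median of ratios scaling gave 3.46 and 3.78. Its change at 8 h was 2.65 in wt and 2.70 in Treml4-/- cells, and at 12 h it was 2.90 in wt and 2.97 in Treml4-/- cells. From M1-8 h to M1-12 h the log2 fold change of 0.26 (SE 0.11) did not pass the test (limma adjusted p = 0.0682).

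Dusp2 (chr2:127336159-127338376, forward strand), a nuclear enzyme of activated leukocytes, had a transient rise. Its M0 level was 1.95 and 2.12 CPM in the wt replicates and 1.73 and 1.87 CPM in the Treml4-/- replicates. At M1-8 h it reached 55.3 and 58.2 CPM in the wt replicates and 43.3 and 37.1 CPM in the Treml4-/- replicates, and by M1-12 h it was back to 3.97 and 8.26 CPM in the wt replicates and 2.96 and 3.59 CPM in the Treml4-/- replicates. The 3 times did not overlap, and at 12 h wt replicate 2 stood well above the other libraries. On the log2(CPM + 1) scale Dusp2 rose by 4.06 (SE 0.16) at 8 h (limma adjusted p = 4.6e-10), the largest change of the 9 members. It then changed by -3.18 (SE 0.16) between M1-8 h and M1-12 h (limma adjusted p = 6.9e-08), which left 0.88 (SE 0.16) over M0 at 12 h (limma adjusted p = 2.6e-04). With median of ratios scaling the LPS changes were 4.64 at 8 h and 1.47 at 12 h. The 8 h change was 4.25 in wt and 3.87 in Treml4-/- cells, and the 12 h change was 1.16 in wt and 0.61 in Treml4-/- cells.

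Dusp5 (chr19:53529109-53542431, forward strand), a nuclear phosphatase selective for ERK, also peaked at 8 h. At M0 Dusp5 measured 4.49 and 6.35 CPM in the wt replicates and 5.64 and 5.87 CPM in the Treml4-/- replicates. After 8 h of LPS it measured 85.8 and 71.1 CPM in the wt replicates and 73.2 and 67.9 CPM in the Treml4-/- replicates, and after 12 h 24.7 and 24.1 CPM in the wt replicates and 20.7 and 22.4 CPM in the Treml4-/- replicates. The 3 times were separate in every library. Dusp5 rose by 3.52 (SE 0.099) at 8 h (limma adjusted p = 3.0e-11) and was still 1.87 (SE 0.099) above M0 at 12 h (limma adjusted p = 5.0e-09). The step between the LPS times was -1.65 (SE 0.099) (limma adjusted p = 2.1e-07). Median of ratios scaling gave 4.22 at 8 h and 2.61 at 12 h. Per genotype, the 8 h change was 3.64 in wt and 3.40 in Treml4-/- cells, and that at 12 h was 2.00 in wt and 1.74 in Treml4-/- cells.

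Dusp4 (chr8:34807297-34819894, forward strand), the fourth nuclear enzyme, went the other way. In M0 cells Dusp4 was at 59.5 and 66.9 CPM in the wt replicates and 65.02 and 65.8 CPM in the Treml4-/- replicates. It was at 8.56 and 5.77 CPM in the wt replicates and 9.08 and 7.90 CPM in the Treml4-/- replicates at M1-8 h and at 15.5 and 9.31 CPM in the wt replicates and 21.1 and 21.2 CPM in the Treml4-/- replicates at M1-12 h. All M0 libraries were above all LPS libraries, and all M1-12 h libraries were above all M1-8 h libraries. Dusp4 fell, with a log2 fold change of -2.90 (SE 0.15) at 8 h (limma adjusted p = 3.3e-09) and -1.94 (SE 0.15) at 12 h (limma adjusted p = 1.1e-07). It rose by 0.96 (SE 0.15) between the LPS times (limma adjusted p = 1.8e-04). Both decreases kept their sign with median of ratios scaling, at -2.14 and -1.12. The 8 h change was -2.99 in wt and -2.81 in Treml4-/- cells, and the 12 h change was -2.30 in wt and -1.58 in Treml4-/- cells.

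Of the members selective for JNK and p38, Dusp10 (chr1:184013302-184075636, forward strand) was weakly expressed and rose at both times. Dusp10 was found at 1.47 and 1.24 CPM in the wt replicates and 1.28 and 1.59 CPM in the Treml4-/- replicates at M0. With 8 h of LPS the level was 7.65 and 6.87 CPM in the wt replicates and 7.03 and 7.46 CPM in the Treml4-/- replicates, and with 12 h it was 11.03 and 8.97 CPM in the wt replicates and 8.58 and 11.1 CPM in the Treml4-/- replicates. These 3 times did not overlap. The log2 fold change was 1.79 (SE 0.10) at 8 h (limma adjusted p = 1.2e-08) and 2.18 (SE 0.10) at 12 h (limma adjusted p = 2.1e-09), or 2.30 and 2.75 with median of ratios scaling. The further step of 0.40 (SE 0.10) to M1-12 h had a limma adjusted p = 0.00679 and a fold of 1.32, under the 1.4 required for a call. Its 8 h change was 1.81 in wt and 1.76 in Treml4-/- cells, and its 12 h change 2.22 in wt and 2.14 in Treml4-/- cells.

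Dusp16 (chr6:134715468-134792625, reverse strand), the other member of this class, was raised more at 8 h than at 12 h. Its level at M0 was 14.4 and 11.2 CPM in the wt replicates and 9.63 and 11.2 CPM in the Treml4-/- replicates. At M1-8 h it was 81.3 and 99.3 CPM in the wt replicates and 81.6 and 80.98 CPM in the Treml4-/- replicates, and at M1-12 h it was 54.4 and 66.3 CPM in the wt replicates and 55.5 and 49.5 CPM in the Treml4-/- replicates. The M1-8 h libraries were the highest, the M0 libraries the lowest, and no library crossed over. Dusp16 rose by 2.79 (SE 0.10) at 8 h (limma adjusted p = 2.7e-10) and 2.19 (SE 0.10) at 12 h (limma adjusted p = 1.9e-09). The change between the LPS times was -0.60 (SE 0.10) (limma adjusted p = 4.6e-04). Median of ratios scaling gave 3.54 at 8 h and 2.99 at 12 h. By genotype, the 8 h change was 2.73 in wt and 2.85 in Treml4-/- cells, and the 12 h change was 2.16 in wt and 2.23 in Treml4-/- cells.

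Among the members, the cytoplasmic ERK phosphatases were those whose 8 h change differed in sign between the scalings. Dusp6 (chr10:99263231-99267489, forward strand), a feedback inhibitor of ERK signalling, was at 5.21 and 4.90 CPM in the wt replicates and 4.99 and 5.99 CPM in the Treml4-/- replicates at M0. The M1-8 h level was 3.05 and 2.82 CPM in the wt replicates and 3.61 and 3.38 CPM in the Treml4-/- replicates, and the M1-12 h level was 7.50 and 9.27 CPM in the wt replicates and 9.50 and 7.46 CPM in the Treml4-/- replicates. In CPM the M1-8 h libraries were the lowest and the M1-12 h libraries the highest, without overlap. Dusp6 was called lower at 8 h, at -0.57 (SE 0.10) (limma adjusted p = 2.2e-04). With median of ratios scaling it stood at 0.07 (limma adjusted p = 0.528), so no difference at 8 h was detected on that scale. At 12 h it rose by 0.58 (SE 0.10) (limma adjusted p = 1.8e-04), or 1.30 with median of ratios scaling. From M1-8 h to M1-12 h it rose by 1.16 (SE 0.10) (limma adjusted p = 3.2e-06), the largest increase of any member over that interval. The 8 h change was -0.62 in wt and -0.53 in Treml4-/- cells, and the 12 h change was 0.63 in wt and 0.54 in Treml4-/- cells.

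Dusp7 (chr9:106368632-106375724, forward strand), its cytoplasmic relative, fell late. M0 libraries held 49.3 and 52.2 CPM in the wt replicates and 45.7 and 48.9 CPM in the Treml4-/- replicates. M1-8 h libraries held 40.03 and 33.6 CPM in the wt replicates and 37.5 and 36.6 CPM in the Treml4-/- replicates, and M1-12 h libraries held 8.996 and 11.02 CPM in the wt replicates and 10.2 and 9.999 CPM in the Treml4-/- replicates. The 3 times were separate, with the M1-12 h libraries far below the rest. At 8 h Dusp7 had a log2 fold change of -0.40 (SE 0.082) (limma adjusted p = 6.3e-04), a fold of 1.32 that missed the 1.4 required, and median of ratios scaling turned it to 0.38. At 12 h it was lower by either scaling, at -2.18 (SE 0.082) (limma adjusted p = 2.9e-10) and -1.37. The change from M1-8 h to M1-12 h was -1.78 (SE 0.082) (limma adjusted p = 4.3e-08). Within genotypes, the 8 h change was -0.46 in wt and -0.34 in Treml4-/- cells, and at 12 h it was -2.24 in wt and -2.12 in Treml4-/- cells. Dusp6 and Dusp7 therefore moved in opposite directions between the LPS times.

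The atypical members differed in level by orders of magnitude. Dusp3 (chr11:101971143-101987013, reverse strand), a small phosphatase of ERK and JNK, was the most abundant member of M0 cells, at 278 and 284 CPM in the wt replicates and 266 and 269 CPM in the Treml4-/- replicates. At M1-8 h Dusp3 was at 43.2 and 43.7 CPM in the wt replicates and 47.1 and 41.8 CPM in the Treml4-/- replicates, and at M1-12 h at 80.4 and 66.6 CPM in the wt replicates and 85.8 and 87.5 CPM in the Treml4-/- replicates. M0 libraries were the highest and M1-8 h libraries the lowest, without overlap. Dusp3 fell, with a log2 fold change of -2.61 (SE 0.068) at 8 h (limma adjusted p = 1.8e-11) and -1.77 (SE 0.068) at 12 h (limma adjusted p = 3.8e-10). It recovered by 0.84 (SE 0.068) between the LPS times (limma adjusted p = 1.7e-06). Median of ratios scaling gave -1.82 at 8 h and -0.92 at 12 h. By genotype the 8 h change was -2.66 in wt and -2.56 in Treml4-/- cells, and the 12 h change -1.92 in wt and -1.61 in Treml4-/- cells.

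Dusp14 (chr11:84048041-84069261, reverse strand), the other atypical member, was near the limit of detection. No read was counted in any of the 4 M0 libraries. At M1-8 h it had 5 and 11 reads in wt and 3 and 3 reads in Treml4-/- cells, and at M1-12 h 5 and 14 reads in wt and 2 and 6 reads in Treml4-/- cells. Each LPS library thus held some reads where no M0 library did. Pooled over the 4 libraries, 22 reads at 8 h were 0.102 CPM and 27 reads at 12 h were 0.130 CPM, which were at least 6.95-fold and at least 8.87-fold higher than a floor of 3 reads over the M0 group (0.0146 CPM). The exact two-sided permutation test gave p = 0.0286 for both times, the smallest that 4 against 4 libraries allow. At these counts the genotypes, with 16 against 6 pooled reads at 8 h and 19 against 8 at 12 h, were not compared by a test.

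**Figure D2:**
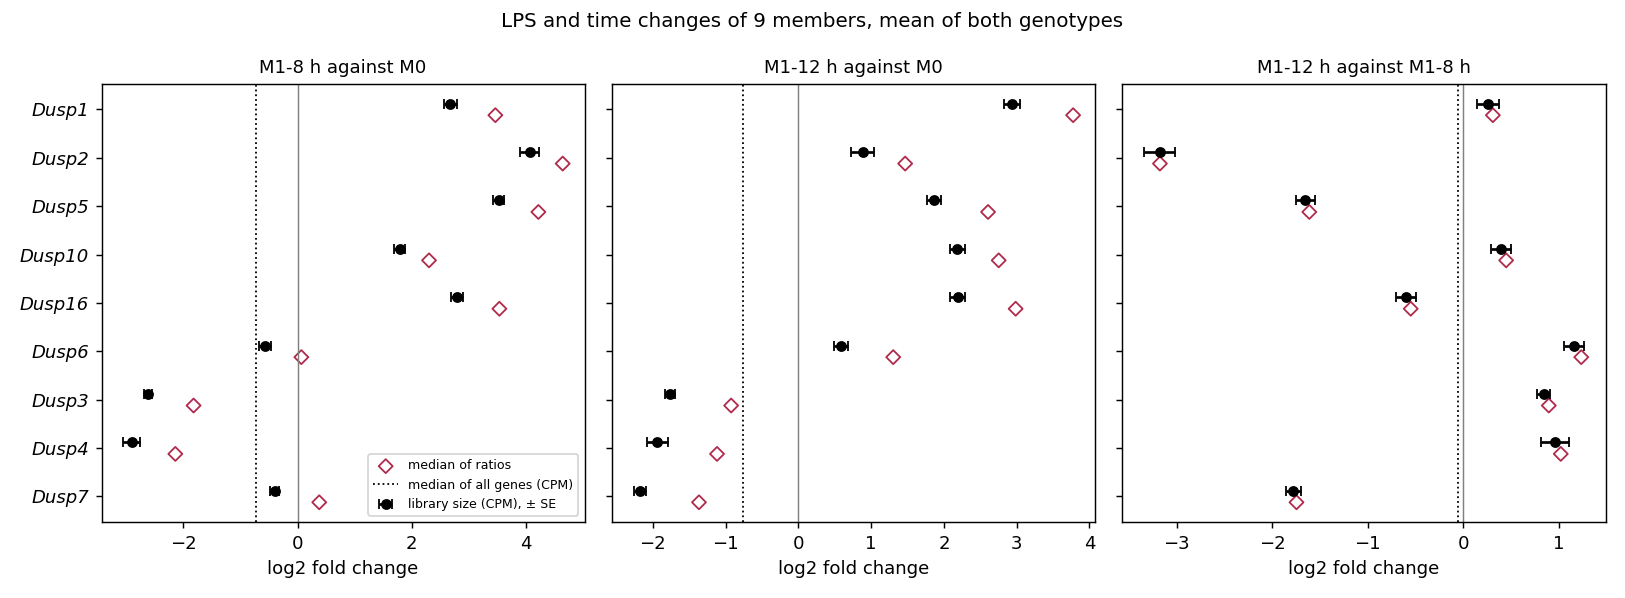
Log2 fold change (horizontal axis) of 9 members at M1-8 h against M0, M1-12 h against M0 and M1-12 h against M1-8 h, as the mean of both genotypes. Black circles with SE bars are on the CPM scale, open diamonds follow median of ratios scaling, and the dotted line is the median of all 12086 genes, which is at -0.72, -0.76 and -0.06. The symbols of Dusp6 and Dusp7 lie on opposite sides of 0 only in the 8 h panel.

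Levels were compared between genes as CPM per kb of exon, since longer genes collect more reads. At M0 the members' order was led by Dusp3 with 58.5 ± 1.78 CPM per kb (SD, n = 4), or 48.0% of the members' summed level. Dusp4 at 23.5 ± 1.20 and Dusp1 at 18.6 ± 2.76 followed and overlapped each other, and Dusp7 was at 14.6 ± 0.792 CPM per kb. Dusp5 (2.26), Dusp6 (1.68) and Dusp16 (1.49 CPM per kb) had overlapping neighbours in this order. Dusp2 (0.958) and Dusp10 (0.458 CPM per kb) were lower still, and Dusp14 was at 0.

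After LPS the order was led by Dusp1. At M1-8 h Dusp1 was at 119.98 ± 14.8 CPM per kb (SD, n = 4), or 56.5% of the sum, ahead of Dusp5 at 30.1 ± 3.17 and Dusp2 at 24.2 ± 4.98, which overlapped each other. Dusp7 and Dusp16 were at 11.007 and 11.001 CPM per kb, Dusp3 at 9.39 ± 0.482, Dusp4 at 2.86, Dusp10 at 2.38, Dusp6 at 1.03 and Dusp14 at 0.0529 CPM per kb. Neighbours overlapped for Dusp7 and Dusp16 and for Dusp4 and Dusp10. At M1-12 h Dusp1 reached 143 ± 13.3 CPM per kb, or 73.6% of the sum, followed by Dusp3 at 17.1 ± 2.02. The remaining members at that time ran from Dusp5 at 9.28 to Dusp2 at 2.34 CPM per kb, each overlapping the next in the order Dusp5, Dusp16, Dusp4, Dusp10, Dusp7, Dusp6 and Dusp2, and Dusp14 was at 0.0668. The summed level of the 10 members was 117 to 130 CPM per kb at M0, 197 to 242 at M1-8 h and 182 to 211 at M1-12 h, so the M0 libraries were below all LPS libraries on this scale. Dividing by the longest transcript instead of all exons moved 5 members to another place at M0 and 2 at each LPS time, but Dusp3 stayed first at M0 and Dusp1 stayed first after LPS.

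**Figure D3:**
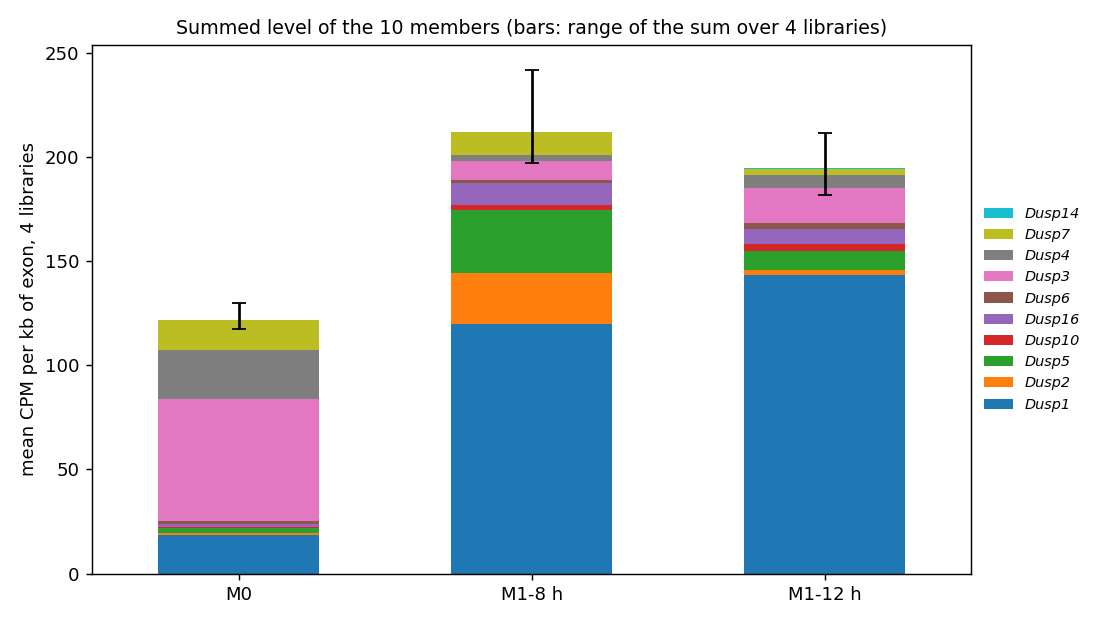
Summed level of the 10 members in mean CPM per kb of exon (vertical axis, from 0) at M0, M1-8 h and M1-12 h, stacked by gene, with bars for the range of the sum over 4 libraries. Dusp3 makes up 48.0% of the M0 column, and Dusp1 makes up 56.5% and 73.6% of the M1-8 h and M1-12 h columns.

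The genotypes were compared as wt minus Treml4-/- at each time. No member was called at M0, M1-8 h or M1-12 h, where 0.0993%, 0.091% and 0.132% of all genes tested were called. At an unadjusted p under 0.05 the counts were 0 of 9 members at M0 against 3.35% of all genes, 0 at M1-8 h against 21.0%, and 3 at M1-12 h against 7.55%. Limma's voom on the recovered reads also called 0 members at each time. The log2 differences of the 9 members lay between -0.10 and 0.26 at M0 and between -0.24 and 0.49 at M1-8 h, with 95% confidence bounds within -0.50 to 0.62 and -0.69 to 0.99. At M1-12 h the 6 members not named next lay between -0.02 and 0.19.

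The 3 members at M1-12 h were Dusp2, Dusp3 and Dusp4, whose values by library are given above. Dusp2 was higher in both wt libraries than in both Treml4-/- libraries, by 0.67 (95% CI 0.17 to 1.17, limma adjusted p = 0.475). Its difference was 0.12 at M0 and 0.49 at M1-8 h (limma adjusted p = 1 and 0.243). Dusp4 was lower in both wt libraries at M1-12 h, with a difference of -0.76 (95% CI -1.22 to -0.31, limma adjusted p = 0.283). Dusp3 was also lower in both, with a difference of -0.24 (95% CI -0.45 to -0.03, limma adjusted p = 0.606). None of the 3 passed the correction. Dusp5 libraries were also apart between genotypes at M1-12 h, at 24.1 to 24.7 CPM in wt and 20.7 to 22.4 CPM in Treml4-/- cells. Such separation of 2 libraries from 2 is frequent by chance, and its share over all genes was not computed. The 2 wt replicates at M1-12 h stood apart from each other in Dusp2 and Dusp4, and without wt replicate 1 both were called, at 1.12 for Dusp2 (limma adjusted p = 0.0150) and -1.10 for Dusp4 (limma adjusted p = 0.0369). Without wt replicate 2 the differences shrank to 0.22 for Dusp2, -0.42 for Dusp4 and -0.11 for Dusp3, each with a limma adjusted p = 1, so their size rested on that library. Over all alternative settings the adjusted p of Dusp2 and Dusp4 ranged from 0.0150 to 1 and from 0.0369 to 1.

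The LPS change itself was compared between genotypes with an interaction term. No member was called at 8 h or at 12 h, against 0.00827% of all genes in each case, and voom called 0 as well. At an unadjusted p under 0.05 there were 0 of 9 members at 8 h, against 6.67% of all genes, and 2 at 12 h, against 3.82%. The interactions at 8 h lay between -0.18 and 0.38, with bounds within -0.83 to 1.08. At 12 h the interaction, wt minus Treml4-/-, was -0.71 for Dusp4 (95% CI -1.35 to -0.07, limma adjusted p = 0.999) and -0.31 for Dusp3 (95% CI -0.61 to -0.01, limma adjusted p = 0.999). Without wt M1-12 h replicate 2 these were -0.37 for Dusp4 and -0.18 for Dusp3. The other 7 lay between -0.12 and 0.55. With 2 libraries per condition the intervals of most members include a 1.4-fold difference in at least 1 comparison. A difference of that size may not be detectable here. In simulated data for the genotypes at 8 h, 7 of 50 genes changed 1.4-fold and 41 of 50 changed 2-fold were called.

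Summed cell type markers were also set side by side for the genotypes, with 2 libraries each. Summed neutrophil and precursor markers were 32.5 to 85.0 CPM in wt and 87.6 to 103 CPM in Treml4-/- cells at M0, 55.3 to 59.7 and 69.2 to 89.7 CPM at M1-8 h, and 41.6 to 52.0 and 48.5 to 60.8 CPM at M1-12 h. Summed macrophage markers were 23247 to 27907 CPM in wt and 20712 to 20948 CPM in Treml4-/- cells at M0, 12017 to 13416 and 10295 to 11030 CPM at M1-8 h, and 10391 to 11185 and 9996 to 10395 CPM at M1-12 h. Both lists were apart between genotypes at M0 and M1-8 h and overlapped at M1-12 h. At M0 the higher wt neutrophil sum, 85.0 CPM, lay close to the lower Treml4-/- sum, 87.6 CPM, and far from the other wt sum. With 2 libraries against 2, values often lie apart by chance, and the share of all genes that did so was not computed. The part of these markers in the member differences was not tested.

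**Figure D4:**
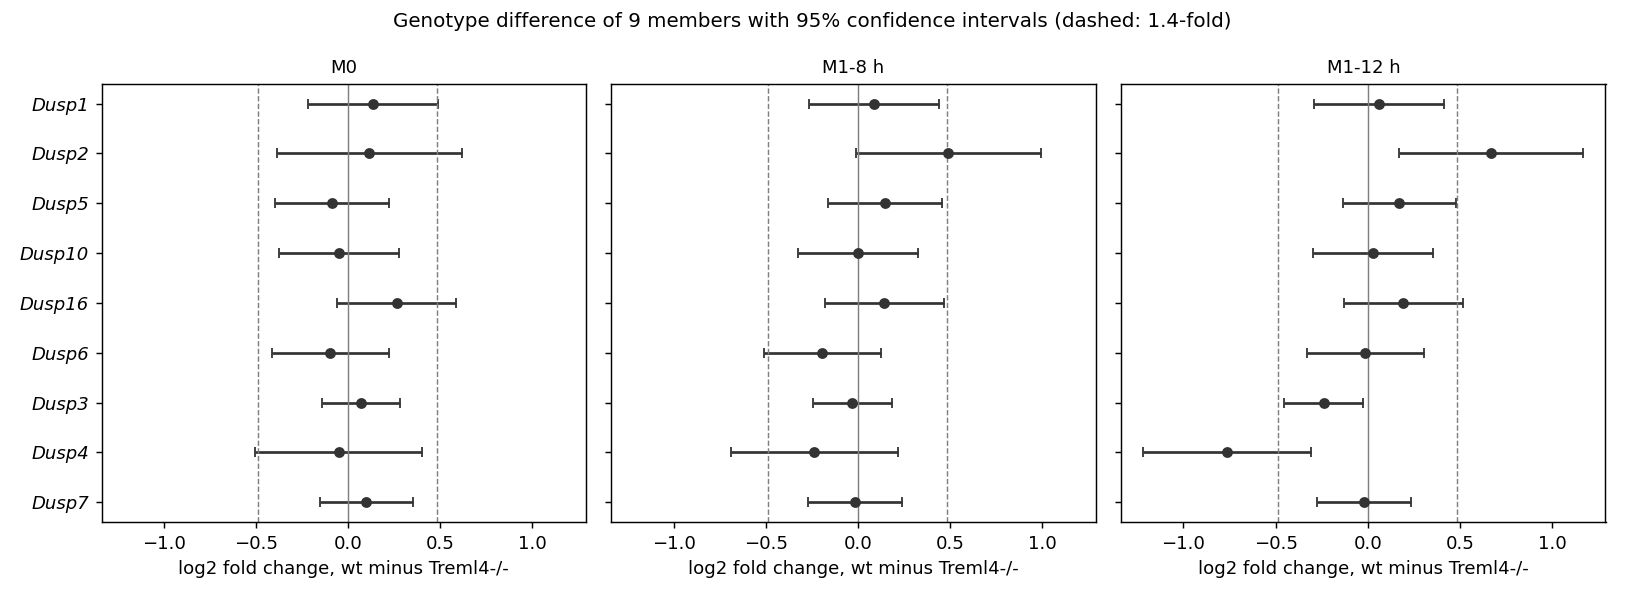
Difference wt minus Treml4-/- in log2(CPM + 1) (horizontal axis) for 9 members at M0, M1-8 h and M1-12 h. Points are limma estimates with 95% confidence intervals and dashed lines mark a 1.4-fold difference. All intervals at M0 and M1-8 h include 0, and at M1-12 h those of Dusp2, Dusp3 and Dusp4 do not.

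The other genes of the MAP kinase pathways were read from fixed lists, with calls on the CPM scale given first. For comparison, 17.1% of all genes tested were called higher and 59.8% lower at 8 h, and 16.3% and 60.3% at 12 h, or 31.1% and 31.4%, then 32.7% and 32.6%, with median of ratios scaling. No list was tested against the other genes. Of 8 tested MAP kinases, 1 was called higher and 4 lower at 8 h, and 1 higher and 3 lower at 12 h. Median of ratios scaling gave 4 higher and 2 lower at 8 h, and 5 higher and 2 lower at 12 h. Mapk14, the p38 alpha kinase that several members dephosphorylate, had the largest decrease, from 214 ± 13.9 CPM at M0 to 27.2 ± 6.10 at M1-8 h and 58.6 ± 7.97 at M1-12 h (SD, n = 4). Its log2 fold change was -2.96 at 8 h and -1.86 at 12 h (limma adjusted p = 2.6e-11 and 1.0e-09), or -2.17 and -1.02 with median of ratios scaling. Mapk11, the p38 beta kinase, was the 1 called higher, at 0.51 at both times from a level of 2.31 CPM at M0.

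Of 7 MAP2 kinases, which phosphorylate the MAP kinases, 2 were higher and 5 lower at 8 h, and 2 higher and 4 lower at 12 h. After median of ratios scaling, 2 were higher at both times and 2 and 0 lower. Map2k4, an activator of JNK and p38, rose from 44.9 to 171 CPM at M1-8 h (log2 fold change 1.91), and Map2k1, an activator of ERK, rose from 111 to 403 CPM at M1-12 h (log2 fold change 1.86). Map2k3, an activator of p38, fell from 171 to 59.1 CPM at M1-8 h (log2 fold change -1.52). Median of ratios scaling gave 2.70 for Map2k4, 2.70 for Map2k1 and -0.73 for Map2k3 at these times. Map2k7 at 12 h had -0.97, but -0.14 with median of ratios scaling, where it was not called.

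Of 14 MAP3 kinases, 2 were higher and 10 lower at 8 h, and 1 higher and 9 lower at 12 h. The counts with median of ratios scaling were 3 higher and 5 lower, then 4 higher and 4 lower. Map3k8, the kinase that links LPS receptors to ERK, rose from 18.3 ± 2.82 CPM at M0 to 99.6 ± 9.59 at M1-8 h and 57.8 ± 4.36 at M1-12 h (SD, n = 4), with log2 fold changes of 2.39 and 1.62. Zak, the symbol used in the table for Map3k20, had the largest decrease of the list, at -3.01 and -2.80. Median of ratios scaling gave 3.15 and 2.43 for Map3k8, and -2.30 and -2.04 for Zak.

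Of 10 MAPK-activated kinases, 3 were higher and 7 lower at 8 h, and 1 higher and 6 lower at 12 h, against 3 and 4 at 8 h and 2 and 3 at 12 h with median of ratios scaling. On the CPM scale, the largest increase of this list at 8 h was that of Rps6ka3 (0.64) and the largest decrease that of Rps6ka1 (-1.79). At 12 h the largest increase was that of Rps6ka4 (0.54) and the largest decrease that of Rps6ka5 (-1.69). All of these are ribosomal S6 kinases.

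The list of feedback genes of the ERK pathway holds the Sprouty and Spred inhibitors and also Sos1, Ier3 and others, so it is not a list of inhibitors only. It was the only one of the 6 lists with more genes higher than lower on the CPM scale at both times. With median of ratios scaling this also held for the MAP kinases. Of the 9 tested feedback genes, 6 were higher and 2 lower at 8 h, and 6 higher and 1 lower at 12 h. Median of ratios scaling made these counts 7 and 0, then 8 and 0. The list's median log2 fold change was 0.67 at 8 h and 1.01 at 12 h. Ier3, an early response gene, led with a rise from 11.8 to 302 CPM at M1-8 h and 193 CPM at M1-12 h. Its log2 fold changes were 4.56 and 3.91, or 5.31 and 4.71 with median of ratios scaling. Spry2 at 8 h (-0.78) and Rasa1 at 12 h (-0.83) were lower on the CPM scale, but -0.23 and -0.02 with median of ratios scaling, where neither was called. Spry2 was the only Sprouty gene tested, and stood at 0.14 at 12 h on the CPM scale. There, Spred1, Spred2 and Spred3 stood at 2.48, 0.67 and 1.01 at 8 h and at 2.27, 1.86 and 1.81 at 12 h. Sos1 stood at 1.93 and 1.01.

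Of 12 other dual specificity and related phosphatases, 2 were higher and 9 lower at 8 h, and 2 higher and 8 lower at 12 h, and median of ratios scaling gave 2 higher and 6 lower at both times. Dusp28, an atypical phosphatase, rose by 1.30 and 1.63, or 1.97 and 2.35 with median of ratios scaling. Dusp8 stood at 0.96 and 1.30 on the CPM scale. Dusp9, a cytoplasmic ERK phosphatase like Dusp6 and Dusp7, had -2.36 and -2.40, or -1.86 and -1.90 with median of ratios scaling. Enzymes of the members' own classes are thus part of this list. The list's medians were -1.12 and -1.004, beside 1.79 and 0.88 for the 9 members. Members and lists were chosen with earlier results of these data known, so these medians are not an independent comparison. No gene of the 6 lists was called between the genotypes or in an interaction, where at most 0.132% of all genes were called in any comparison.

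**Figure D5:**
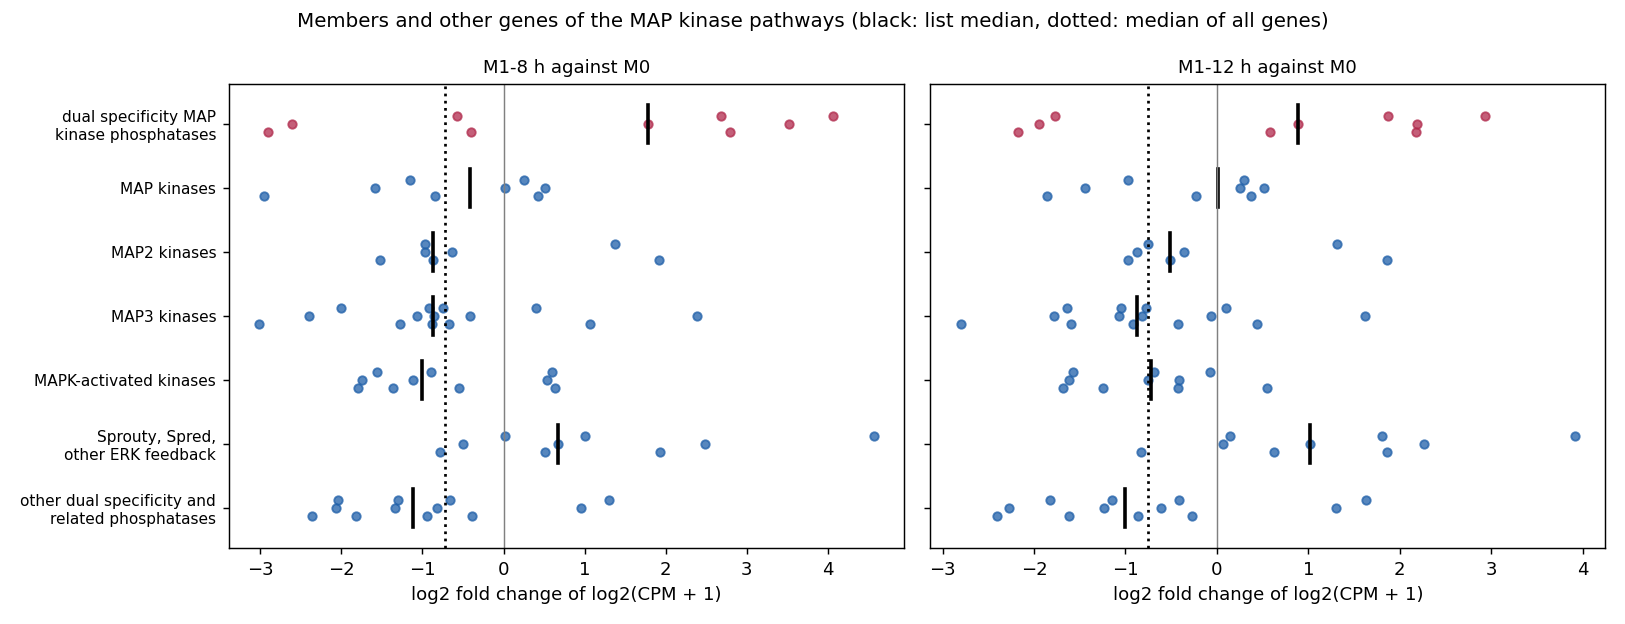
Log2 fold change of log2(CPM + 1) (horizontal axis) for the 9 members (red) and the tested genes of 6 MAP kinase pathway lists (blue) at M1-8 h and M1-12 h against M0. Each point is a gene, black bars are list medians and the dotted line is the median of all genes, at -0.72 and -0.76. The median of the members is 1.79 and 0.88, and that of the ERK feedback list is 0.67 and 1.01. Members and lists were chosen with earlier results of these data known.

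Members were compared in their pattern over the 12 libraries by the root mean square difference (RMSD) of centred log2(CPM + 1), where 0 means the same course and the 12 libraries are shared by all genes. Among members, Dusp3 and Dusp4 were closest, at 0.246, and both were high at M0 and lowest at M1-8 h. Dusp1 and Dusp10 came next at 0.419, Dusp1 and Dusp16 at 0.457 and Dusp5 and Dusp16 at 0.5004. Dusp2 was nearest to Dusp5, at 0.692. The least alike were Dusp2 and Dusp4, at 2.92.

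Among all other genes tested, the nearest to Dusp1 were Ccnd1 (RMSD 0.125) and Ralgds (0.131), and those nearest to Dusp2 were Vdr (0.210) and Fst (0.287). Dusp3 was followed most closely by Coq10a (0.0563) and Crat (0.0709), the smallest distances of any member. The genes nearest to Dusp4 were Epb4.1l1 (0.164) and Sgk1 (0.176). Bcl9 (0.152) and Rab43 (0.173) lay nearest to Dusp5, and Sfn (0.132) and THAP6 (0.133) to Dusp6. For Dusp7 they were Gna15 (0.152) and Smyd5 (0.162), and for Dusp10 Plcl2 (0.105) and Rnf135 (0.121). Ric1 (0.126) and March5 (0.140) were nearest to Dusp16. Each of these genes was closer to its member than any other member was. The search over 12086 genes had far more candidates than the members, so this does not show whether members share a course.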

How the data were processed

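Poly(A) RNA was sequenced as stranded paired-end libraries from 12 BMDM cultures, 2 for each genotype and time. The authors aligned the reads with STAR and counted them on genes, and the submitters' processing notes name mm10. Whether counting used strand is not given in the sources used here. The deposited values were log2 CPM, made by the authors with a small prior count. The design assumed CPM, so the log2 values were turned back into CPM and reads, and 100% came out whole within 0.01 read. Libraries held 48008751 to 58500792 reads, and the floors of 3 reads cover counting error only, while confidence intervals rest on the spread between libraries.

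The model, limma 3.58.1 under R 4.3.3, took log2(CPM + 1), fitted a mean for each condition with a variance trend and had 6 residual degrees of freedom. It covered the 12086 genes that reached 1 CPM in 2 or more libraries. Adjustment followed Benjamini and Hochberg, and a call also needed a 1.4-fold change. Median of ratios factors served as the other scaling. Scripts were tested on simulated data. Other steps used numpy 2.4.6, pandas 2.3.3 and scipy 1.17.1 under Python 3.11.15.

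All 10 members are named. Genotype values are given singly at an unadjusted p under 0.05, and pathway genes by the largest call in each direction per list. Dusp8, Sos1 and the tested Sprouty and Spred genes are named besides. The members and lists were chosen with earlier results of these data known. Sequences are from the RefSeq promoter table for GRCm38.p6, positions and exon lengths from GENCODE M21. Alternatives were other pseudocounts, filters, scalings and fits, a replicate block, and leaving out each replicate.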

Additional observations from a re-analysis of the deposited data

How the results depend on the processing

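Of 27 LPS and time changes of members under every setting that kept the 1.4-fold minimum, 616 of 621 values kept direction and side of the threshold. The 4 reversals were Dusp6 and Dusp7 at 8 h of LPS, with 0.067 and 0.38 under median of ratios scaling and 0.33 and 0.094 under quantile normalization. The fall of Dusp16 between the LPS times was no longer called under quantile normalization, at -0.48. Without a minimum fold, 9 members in place of 8 passed at 8 h of LPS, with Dusp7 added. Between the LPS times 8 members in place of 7 passed, with Dusp10 added. Of 115 values of the 5 genotype and interaction results named, 113 kept their side. The exceptions came without wt M1-12 h replicate 1, where Dusp2 stood at 1.12 and Dusp4 at -1.10. Without wt M1-12 h replicate 2 they stood at 0.22 and -0.42, Dusp3 at -0.11, and the interactions of Dusp4 and Dusp3 at -0.37 and -0.18. The count of members called between genotypes at M1-12 h ranged from 0 to 2 when 1 replicate was left out and was 0 otherwise.

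Counts over all genes moved more. Between genotypes, leaving out 1 replicate gave 7 to 219 genes at M0 (12 with all libraries, 219 without wt M0 replicate 1), 8 to 598 at M1-8 h (11 with all, 598 without Treml4-/- M1-8 h replicate 1) and 6 to 79 at M1-12 h (16 with all, 79 without wt M1-12 h replicate 1), and 1 to 3 and 1 to 33 for the interactions (1 with all). Other settings gave 6 to 16, 5 to 15 and 7 to 20 genes and 0 to 2 interactions. Without a minimum fold, 7291 genes in place of 3885 passed between the LPS times.

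The labels do not state that a replicate number marks a shared animal or day, and the numbers did not meet the correlation required for pairing in every pair. Same-numbered wt and Treml4-/- libraries had correlations of deviations of -0.264, 0.297 and 0.0563 in the order of the 3 times. Across times, same-numbered libraries of a genotype ran from 0.0625 to 0.406 in wt and from -0.272 to 0.462 in Treml4-/- cells. With the replicate block, 8, 9 and 7 members were called for LPS at 8 h, at 12 h and between them, and 0 between genotypes, as without it, and a block within each genotype gave the same counts. Depth limits Dusp14, with at most 14 reads in a library.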
